A study of Homo sapiens with 9 samples.

Results

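The 10 genes described here make, inactivate or receive prostaglandins, and they were chosen by symbol from the 36385 rows of the deposited gene table, where each of the 10 symbols had a row. RNA came from the osteosarcoma line MG-63, established from human tumour cells that keep osteoblast features, grown on 3 implant surfaces with 3 libraries each. The surfaces were boronized Ti6Al4V with HA (called HA coating here), Ti6Al4V with TiB2 (called TiB2) and uncoated Ti6Al4V, a titanium alloy (called bare alloy). Both coated surfaces thus contain boron. The HA libraries differ from bare alloy in boronizing as well as in HA, and HA coating against bare alloy cannot tell these apart. The series asks how the HA coating affects osteogenic differentiation, and its labels mark the TiB2 libraries as left out of the authors' final analysis. All libraries, bare alloy included, came from cells kept for 7 days in osteogenic medium. Its additions were 100 nM dexamethasone, a glucocorticoid, ascorbic acid at 50 µg/mL and beta-glycerophosphate at 10 mM. Whether the 3 libraries of a surface are separate cultures is not labelled, and p-values therefore measure library-to-library spread only, which could be technical.

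Prostaglandins are short-lived lipid signals made from arachidonic acid. The cytosolic phospholipase A2 encoded by PLA2G4A frees arachidonic acid from membranes, and the cyclooxygenases PTGS1 (constitutive in most tissues) and PTGS2 (induced by cytokines and growth factors, held down by glucocorticoids) convert it to prostaglandin H2. Terminal synthases then make prostaglandin E2 (PTGES, PTGES2, PTGES3) or prostacyclin (PTGIS), HPGD inactivates prostaglandin E2, and the receptors PTGER2 and PTGER4 pass its signal on by raising cAMP. In bone, prostaglandin E2 acts on both bone-forming and bone-resorbing cells, and osteoblasts are among its sources.

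Of the 4 genes that passed the test on both coated surfaces, 3 are shown with their promoters: PTGS2 and PLA2G4A, which had the largest rises, and PTGER2, the only member that fell on both. The fourth, PTGES3, is not shown. PTGS2 and PLA2G4A are also neighbours: their starts lie 148526 bases apart on chromosome 1, they are read in opposite directions, and only 1 row of the table, the long RNA PACERR, starts between them. The sequences run from 250 bases before to 50 bases after the RefSeq start (GRCh38.p14), 5′ to 3′ on the gene's own strand, and capitals mark matches to any of 6 short motifs searched on both strands.
PTGS2, chr1:186680374-186680673, minus strand: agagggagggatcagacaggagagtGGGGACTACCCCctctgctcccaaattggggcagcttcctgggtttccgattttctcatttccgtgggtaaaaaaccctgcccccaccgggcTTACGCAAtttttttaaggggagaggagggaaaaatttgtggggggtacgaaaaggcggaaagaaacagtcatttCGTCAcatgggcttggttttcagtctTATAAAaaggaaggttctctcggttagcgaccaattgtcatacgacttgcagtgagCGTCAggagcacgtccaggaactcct
PLA2G4A, chr1:186828699-186828998, plus strand: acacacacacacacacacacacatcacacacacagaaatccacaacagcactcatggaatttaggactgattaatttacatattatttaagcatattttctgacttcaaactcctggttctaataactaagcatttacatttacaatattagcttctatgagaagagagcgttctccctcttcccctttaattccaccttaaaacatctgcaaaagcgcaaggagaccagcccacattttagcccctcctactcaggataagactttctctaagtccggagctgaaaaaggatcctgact
PTGER2, chr14:52314062-52314361, plus strand: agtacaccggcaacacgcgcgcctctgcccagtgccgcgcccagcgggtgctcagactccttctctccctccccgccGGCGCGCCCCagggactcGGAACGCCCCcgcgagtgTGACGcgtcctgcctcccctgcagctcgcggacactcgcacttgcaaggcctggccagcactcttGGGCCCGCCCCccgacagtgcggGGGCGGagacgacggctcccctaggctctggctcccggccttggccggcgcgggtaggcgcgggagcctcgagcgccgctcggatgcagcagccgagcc
The 6 motifs were the kappa-B motif (GGG, any 5 bases, CC), TTNCGNAA (C/EBP), TGACG (the core of the cAMP response element), TGANTCA (AP-1), TATAAA (the TATA box) and GGGCGG (the GC box), and matches of different motifs may overlap. Counting from the start site, the PTGS2 window held overlapping kappa-B matches from position -225, a C/EBP match at position -133, cAMP response cores at positions -58 and 25, and a TATA box at position -32. The PLA2G4A window held no match to any of the 6. The PTGER2 window held 5 kappa-B matches counted over both strands, 1 cAMP response core at position -137 and 2 GC boxes. The same bases at position -72 gave a kappa-B match on each strand, and the match at position -71 overlaps them. Over 35097 RefSeq promoters of the same length, 58.7% held a kappa-B match, 2.57% a C/EBP match, 24.5% a cAMP response core, 7.71% an AP-1 match, 11.5% a TATA box and 44.9% a GC box. The GC content of the windows was 50.7% for PTGS2, 39.7% for PLA2G4A and 74.7% for PTGER2. A match describes letters only, and binding was not measured here.

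Totals lay between 60528871 and 72542556 counts on the HA coating, 62951461 and 63413815 on TiB2, and 58464306 and 63122541 on bare alloy, so that 3 counts, the most a count of 0 allows, correspond to 0.0414 to 0.0513 CPM, counts scaled to library size (counting error only). Some libraries stood apart. The 9 libraries fall into a set of 4 (HA 1 to 3 and bare 1) and a set of 5 (TiB2 1 to 3, bare 2 and bare 3), parted by 22 genes that were detected on one side and nearly absent on the other. No prostaglandin gene was among the 22. In the same way, another 22 genes parted HA 3 alone from the other 8 libraries, and 19 genes parted bare 1 alone. Summed over 8 T cell markers, the level was 0 to 0.638 CPM on the HA coating, 7.94 to 8.70 CPM on TiB2 and 0.237 to 6.47 CPM on bare alloy, with CD3D, CD3E, CD3G and LCK at 0 counts in HA 1 to 3 and bare 1. Ribosomal DNA rows took 0.0836% to 0.197% of the counts in HA and TiB2 libraries, 6.48% in bare 1, 1.07% in bare 2 and 0.618% in bare 3. The 7 osteoblast lineage markers were all detected on each surface, BGLAP with only 3 to 17 counts, and moved in both directions. Against bare alloy 1 rose and 3 fell on the HA coating, and 2 rose and 3 fell on TiB2 by edgeR's test. Of all genes tested, 9.89% passed on the HA coating and 25.1% on TiB2. COL1A1, COL1A2 and SPARC fell on both, and ALPL rose on both, by 2.67 ± 0.36 on the HA coating (edgeR adjusted p = 0.00353) and by 2.91 ± 0.27 on TiB2 on the log2 scale (edgeR adjusted p = 8.4e-05). RUNX2 rose on TiB2. SPP1 was at 45.9 to 51.7 CPM in the set of 4 libraries and at 14.5 to 16.4 CPM in the set of 5.

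Both coated surfaces carried far more PTGS2 and PLA2G4A transcript than bare alloy, a little more PTGES3 and less PTGER2. On the HA coating, 3 of the 10 genes rose against bare alloy (PLA2G4A, PTGS2, PTGES3), 1 fell (PTGER2) and 6 did not pass edgeR's quasi-likelihood test at an adjusted p of 0.05 over all genes. Among all 20117 genes tested in that comparison, 9.89% passed, 5.02% upwards and 4.88% downwards. On TiB2, 4 rose against bare alloy (PLA2G4A, PTGS2, PTGES2, PTGES3), 2 fell (PTGIS, PTGER2) and 4 did not pass, where 25.1% of 20152 genes passed, 12.9% upwards and 12.2% downwards. The median log2 fold change of the 10 genes was 0.60 for HA coating against bare alloy and 0.39 for TiB2 against bare alloy, beside 0.015 and 0.0018 over all genes tested in those comparisons. The 2 comparisons share their bare alloy libraries, so their values stand side by side and are no repeat of each other. In bulk RNA, fewer cells that express a gene and less RNA of it per cell cannot be told apart.

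**Figure D1:**
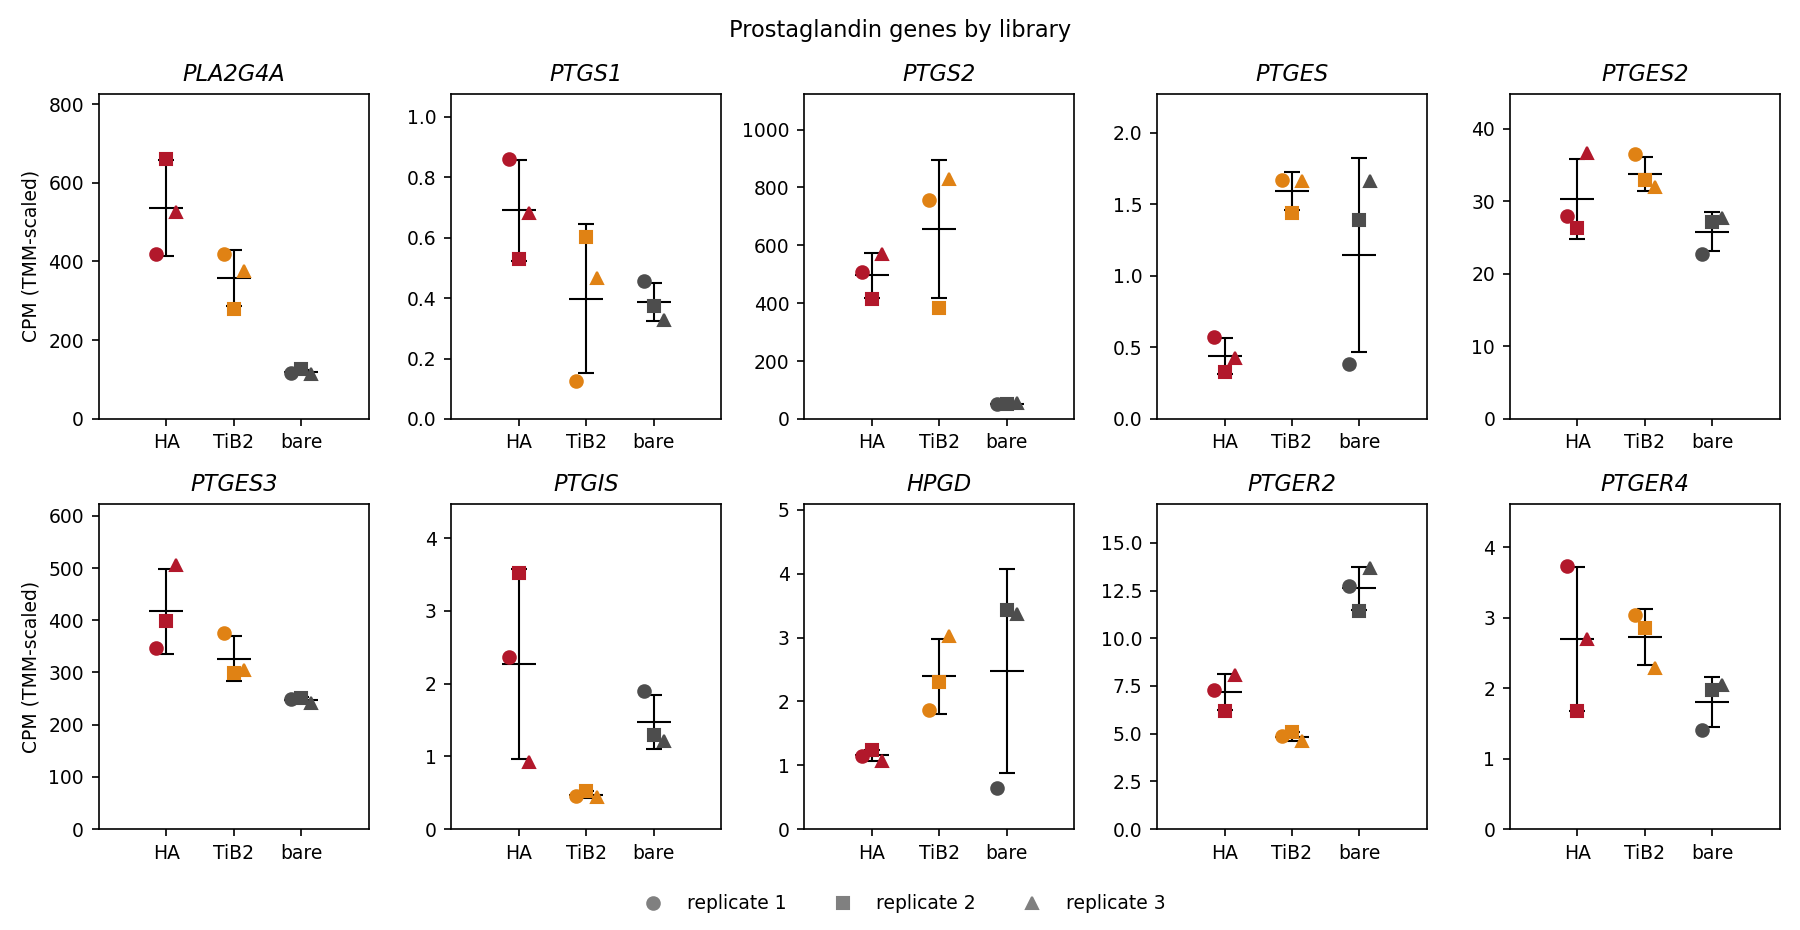
Levels of the 10 prostaglandin genes in each library, in CPM scaled by TMM over the 9 libraries, with HA coating, TiB2 and bare alloy from left to right. Points are libraries, and black bars give mean and SD (n = 3). PTGS2 and PLA2G4A lie higher in all 6 coated libraries than in the 3 bare ones, and PTGER2 lies lower in all 6.

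PLA2G4A, whose product supplies arachidonic acid to both cyclooxygenases, was at 420, 662 and 526 CPM in the HA libraries, at 418, 279 and 376 CPM in the TiB2 libraries, and at 117, 126 and 115 CPM in the bare alloy libraries. Every coated library lay above every bare one. Against bare alloy the level was 4.47-fold higher on the HA coating (log2 fold change 2.16 ± 0.20 SE, edgeR adjusted p = 0.000779) and 3.00-fold higher on TiB2 (1.59 ± 0.13, edgeR adjusted p = 4.41e-05).

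PTGS2, the inducible cyclooxygenase, showed the largest change among the 10 genes. It was at 508, 414 and 569 CPM in the HA libraries, at 755, 385 and 830 CPM in the TiB2 libraries, and at 50.8, 50.1 and 54.1 CPM on bare alloy. The 3 bare libraries lay close together, while TiB2 2 lay well under the other TiB2 libraries and below all 3 HA libraries. Against bare alloy, PTGS2 was 9.55-fold higher on the HA coating (3.26 ± 0.19, edgeR adjusted p = 5.47e-05) and 12.7-fold higher on TiB2 (3.67 ± 0.25, edgeR adjusted p = 1.54e-05). With any 1 library left out, its log2 fold change stayed between 3.16 and 3.37 for the HA coating and between 3.46 and 3.94 for TiB2.

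PTGS1, the constitutive cyclooxygenase, was scarce on all surfaces: 0.861, 0.530 and 0.681 CPM on the HA coating, 0.126, 0.603 and 0.467 CPM on TiB2, and 0.455, 0.375 and 0.329 CPM on bare alloy, which are 8 to 54 counts a library. The HA libraries lay just above the bare ones and the TiB2 libraries overlapped them. Neither difference passed (HA coating against bare alloy 0.83 ± 0.45, edgeR adjusted p = 0.273; TiB2 against bare alloy 0.05 ± 0.60, edgeR adjusted p = 0.967). Per transcript length, on the deposited FPKM scale, PTGS1 made up 0.131% ± 0.026 of the summed level of both cyclooxygenases on the HA coating, 0.0721% ± 0.0680 on TiB2 and 0.696% ± 0.124 on bare alloy (SD, n = 3 each).

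The long RNA PACERR starts on the other side of the PTGS2 promoter and is read away from it, its row beginning 177 bases beyond the PTGS2 row. It was singled out by position after values had been seen. PACERR was at 1.40, 1.73 and 3.07 CPM in the HA libraries, at 1.83, 1.67 and 2.71 CPM in the TiB2 libraries and at 4.08, 3.33 and 3.08 CPM in the bare libraries. All 6 coated libraries lay below the 3 bare ones, HA 3 narrowly. The difference was -0.77 ± 0.32 for HA coating against bare alloy (edgeR adjusted p = 0.163). It passed without HA 3 (-1.16, edgeR adjusted p = 0.0366), with the GC and length offset (-1.12, edgeR adjusted p = 0.0125) and with replicate block and offset (-1.12, edgeR adjusted p = 0.0377). For TiB2 against bare alloy the difference was -0.76 ± 0.24 (edgeR adjusted p = 0.0473). The TiB2 call was lost without TiB2 1, TiB2 2, bare 1, bare 2 or bare 3 (-0.63 to -0.84, edgeR adjusted p of 0.0736 to 0.136). It was also lost with no filter on low counts, with 9 libraries in 1 fit and with the set term (edgeR adjusted p = 0.0966, 0.178 and 0.123). The replicate block, alone or with the GC and length offset (edgeR adjusted p = 0.0837 and 0.0523), and limma on log2(FPKM + 0.1) (limma adjusted p = 0.0557) ended it too. PTGS2 rose on both surfaces, and PACERR rose on neither. The sources do not state whether counting used strand.

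Among the prostaglandin E synthases, PTGES3, a cytosolic enzyme that is also the Hsp90 co-chaperone p23, was at 346, 399 and 506 CPM on the HA coating, at 376, 298 and 305 CPM on TiB2 and at 249, 252 and 241 CPM on bare alloy. Both coated surfaces lay above bare alloy in all libraries. The differences were small: 0.74 ± 0.18 for the HA coating (1.67-fold, edgeR adjusted p = 0.0353) and 0.40 ± 0.09 for TiB2 (1.32-fold, edgeR adjusted p = 0.0121). The HA call was lost without HA 2, bare 1, bare 2 or bare 3, with log2 fold changes of 0.72 to 0.77 and edgeR adjusted p of 0.0675 to 0.182, and the TiB2 call without bare 3 (0.38, edgeR adjusted p = 0.0571). The table also lists 4 pseudogenes of PTGES3 by name, and how reads were divided among them is not stated. The most abundant, PTGES3P1, had 189 to 474 counts a library, against 13680 to 33437 for PTGES3.

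PTGES2, a membrane-associated E synthase, was at 27.9, 26.4 and 36.7 CPM on the HA coating, 36.5, 33.0 and 31.9 CPM on TiB2 and 22.7, 27.1 and 27.7 CPM on bare alloy. HA libraries overlapped the bare ones (0.22 ± 0.18, edgeR adjusted p = 0.467), and TiB2 libraries lay above them (0.39 ± 0.10, edgeR adjusted p = 0.0218). The TiB2 call was lost without TiB2 1 (0.33, edgeR adjusted p = 0.0728), without bare 1 (0.30, edgeR adjusted p = 0.0631) and in 6 of 11 other alternatives, with adjusted p up to 0.159 (edgeR, 9 libraries in 1 fit).

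PTGES encodes the inducible, membrane-bound E synthase that often rises together with PTGS2 in inflamed tissue. Here it was scarce, at 0.574, 0.327 and 0.424 CPM on the HA coating, 1.67, 1.44 and 1.67 CPM on TiB2 and 0.383, 1.39 and 1.66 CPM on bare alloy. Bare 1 lay among the HA libraries, and bare 2 and bare 3 lay near the TiB2 libraries. Against bare alloy it passed on neither surface, with -1.38 ± 0.56 for the HA coating (edgeR adjusted p = 0.154) and 0.47 ± 0.45 for TiB2 (edgeR adjusted p = 0.502).

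PTGIS, the prostacyclin synthase, was at 2.36, 3.52 and 0.923 CPM on the HA coating, 0.458, 0.525 and 0.436 CPM on TiB2 and 1.89, 1.30 and 1.22 CPM on bare alloy. TiB2 libraries were lowest and close together, while the HA libraries spread over both sides of the bare ones. The fall on TiB2 was 3.10-fold (-1.63 ± 0.32, edgeR adjusted p = 0.00506) and rested on 28 to 34 counts a library. On the HA coating the difference was 0.62 ± 0.46 (edgeR adjusted p = 0.421).

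HPGD, the dehydrogenase that starts the inactivation of prostaglandin E2, was at 1.15, 1.25 and 1.07 CPM on the HA coating, 1.86, 2.30 and 3.02 CPM on TiB2 and 0.638, 3.43 and 3.37 CPM on bare alloy. Bare 1 had the lowest level of the 9 libraries and bare 2 and 3 the highest, a wider range than between surfaces. Neither coated surface passed against bare alloy, with -1.11 ± 0.54 for the HA coating (edgeR adjusted p = 0.221) and -0.05 ± 0.51 for TiB2 (edgeR adjusted p = 0.956). Without bare 1 the HA coating did pass, at -1.56 (edgeR adjusted p = 0.0275).

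Of the 2 receptors, PTGER2 was lower on both coated surfaces. It was at 7.31, 6.18 and 8.06 CPM in the HA libraries, at 4.86, 5.07 and 4.62 CPM in the TiB2 libraries and at 12.7, 11.4 and 13.7 CPM in the bare libraries. No library of a surface reached into the range of another surface. PTGER2 fell 1.77-fold on the HA coating (-0.82 ± 0.19, edgeR adjusted p = 0.0295) and 2.60-fold on TiB2 (-1.38 ± 0.13, edgeR adjusted p = 0.000109). The HA call was lost without HA 2, bare 1, bare 2 or bare 3 (-0.72 to -0.88, edgeR adjusted p of 0.0771 to 0.153). Among markers of other cell types, the 6 endothelial ones summed to 13.3 to 15.0 CPM on the HA coating, 11.3 to 12.2 CPM on TiB2 and 29.2 to 38.3 CPM on bare alloy, but this rested on CDH5, the only one called lower on either surface. Without CDH5 they summed to 9.79 to 13.7 CPM on the HA coating, 7.96 to 9.44 CPM on TiB2 and 8.71 to 10.4 CPM on bare alloy.

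PTGER4, the other receptor coupled to cAMP, was at 3.73, 1.68 and 2.69 CPM on the HA coating, 3.05, 2.86 and 2.29 CPM on TiB2 and 1.40, 1.97 and 2.04 CPM on bare alloy. TiB2 libraries lay above the bare ones and HA 2 lay among them. The differences did not pass (HA coating 0.57 ± 0.34, edgeR adjusted p = 0.310; TiB2 0.59 ± 0.23, edgeR adjusted p = 0.0949). PTGER4 lies inside the gene TTC33, which is read from the opposite strand, so its low counts could include reads of that gene. This was not tested. Against bare alloy TTC33 was at 0.40 ± 0.22 on the HA coating (edgeR adjusted p = 0.278) and at -0.04 ± 0.11 on TiB2 (edgeR adjusted p = 0.847). Per length, on the FPKM scale, PTGER2 exceeded PTGER4 by a ratio of 4.16 ± 1.25 on the HA coating, 2.60 ± 0.31 on TiB2 and 10.5 ± 2.5 on bare alloy (SD, n = 3 each).

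**Figure D2:**
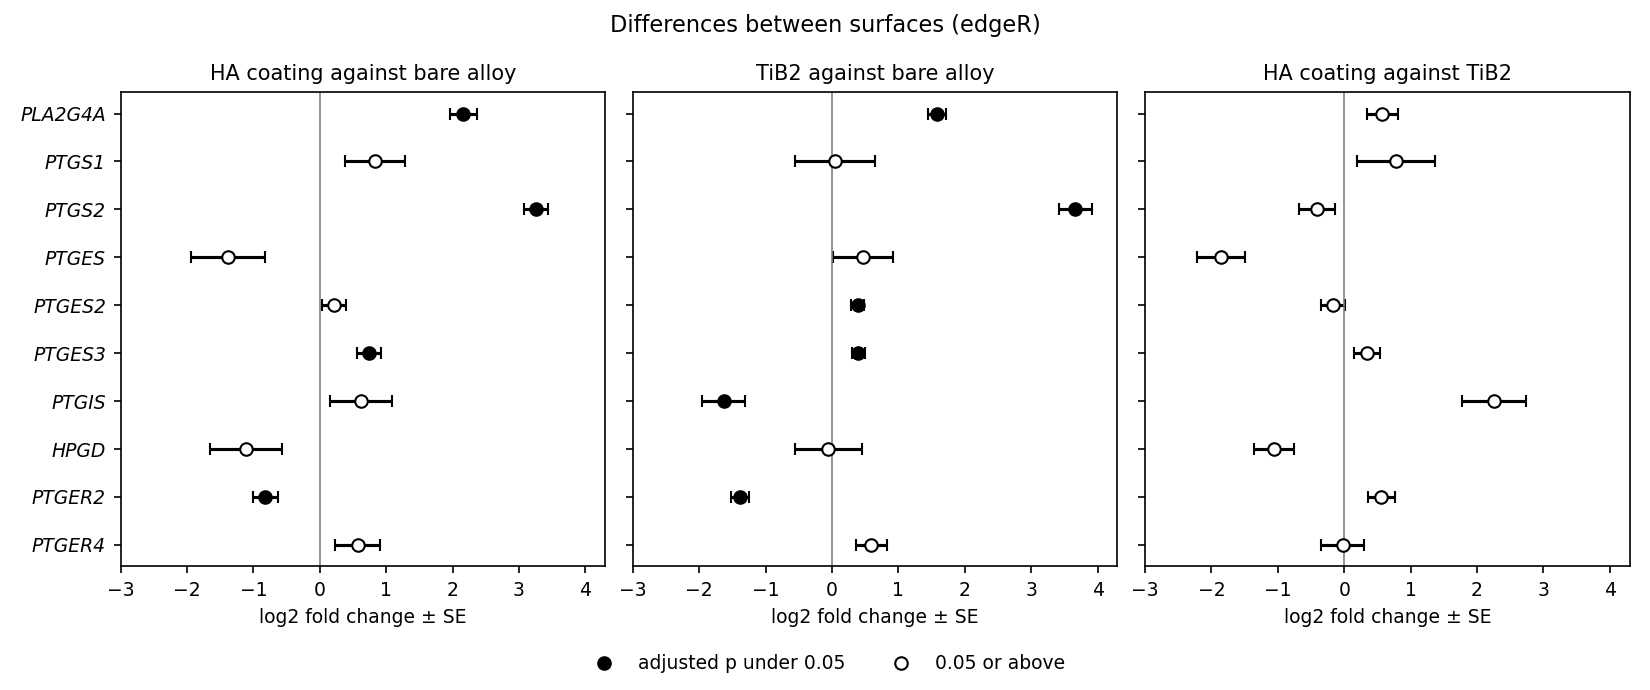
edgeR log2 fold changes with standard errors of the 10 genes in the 3 comparisons, filled where the adjusted p was under 0.05. PTGS2 and PLA2G4A stand far to the right in both comparisons with bare alloy, and no gene is filled for HA coating against TiB2.

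Without overlap between libraries, 4 genes lay higher on the HA coating than on bare alloy (PLA2G4A, PTGS1, PTGS2, PTGES3) and 1 lower (PTGER2), where 34.5% of all genes tested were apart, 17.1% upwards and 17.4% downwards. On TiB2, 5 lay higher than on bare alloy (PLA2G4A, PTGS2, PTGES2, PTGES3, PTGER4) and 2 lower (PTGIS, PTGER2), where 42.1% were apart, 20.9% upwards and 21.2% downwards.

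For HA coating against TiB2, none of the 10 passed edgeR's test, in which 0.632% of 20086 genes passed (0.179% upwards, 0.453% downwards). At an unadjusted p under 0.05 there were 5 of the 10, beside 12% of all genes, and DESeq2 called 2, beside 2.5% of all genes. The median log2 fold change of the 10 was 0.16, beside 0.019 over all genes tested. PTGES came nearest, at -1.86 ± 0.36 (edgeR adjusted p = 0.0617), and lay in each HA library below each TiB2 library. It passed without HA 1 (-2.10, edgeR adjusted p = 0.0323) and under DESeq2 (adjusted p = 0.00177). PTGIS followed with 2.25 ± 0.48 (edgeR adjusted p = 0.0889), which passed without HA 3 (2.62, edgeR adjusted p = 0.0150) and under DESeq2 (adjusted p = 0.00125). HPGD was at -1.06 ± 0.30 (edgeR adjusted p = 0.223), PLA2G4A at 0.58 ± 0.23 (edgeR adjusted p = 0.381), PTGER2 at 0.56 ± 0.20 (edgeR adjusted p = 0.355) and PTGS2 at -0.41 ± 0.28 (edgeR adjusted p = 0.557). Libraries did not overlap for 3 genes higher on the HA coating (PLA2G4A, PTGIS, PTGER2) and 2 lower (PTGES, HPGD), where 18.1% of all genes tested were apart, 8.54% upwards and 9.51% downwards. For PLA2G4A the gap was narrow, 420 CPM in HA 1 against 418 CPM in TiB2 1. A missed threshold does not show that the surfaces act alike. These 6 libraries also split by the library set, all HA libraries in one set and all TiB2 libraries in the other, so coating and set cannot be told apart.

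PTGES and HPGD followed the library sets in bare alloy as well. PTGES stayed at 0.327 to 0.574 CPM in the set of 4 and at 1.39 to 1.67 CPM in the set of 5, and HPGD stayed at 0.638 to 1.25 CPM in the set of 4 and at 1.86 to 3.43 CPM in the set of 5. For both genes, bare 1 thus sided with the HA libraries, and bare 2 and bare 3 with the TiB2 libraries. A fit with a term for the set compares the HA libraries with bare 1 alone, since bare 1 is the only bare library in their set, and assumes that this lone library varies like the others. In it, HA coating against bare alloy became 0.20 for PTGES (edgeR adjusted p = 0.925) and 0.85 for HPGD (edgeR adjusted p = 0.463), with the sign turned round in both, as the place of bare 1 among the HA libraries implies. PTGS2 and PLA2G4A were at 3.28 (edgeR adjusted p = 0.00441) and 2.19 (edgeR adjusted p = 0.0339) in that fit. PTGES3 was at 0.73 (edgeR adjusted p = 0.369) and PTGER2 at -0.84 (edgeR adjusted p = 0.252), close to their values without the term but not past the threshold with this single bare library. What the sets come from was not tested.

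**Figure D3:**
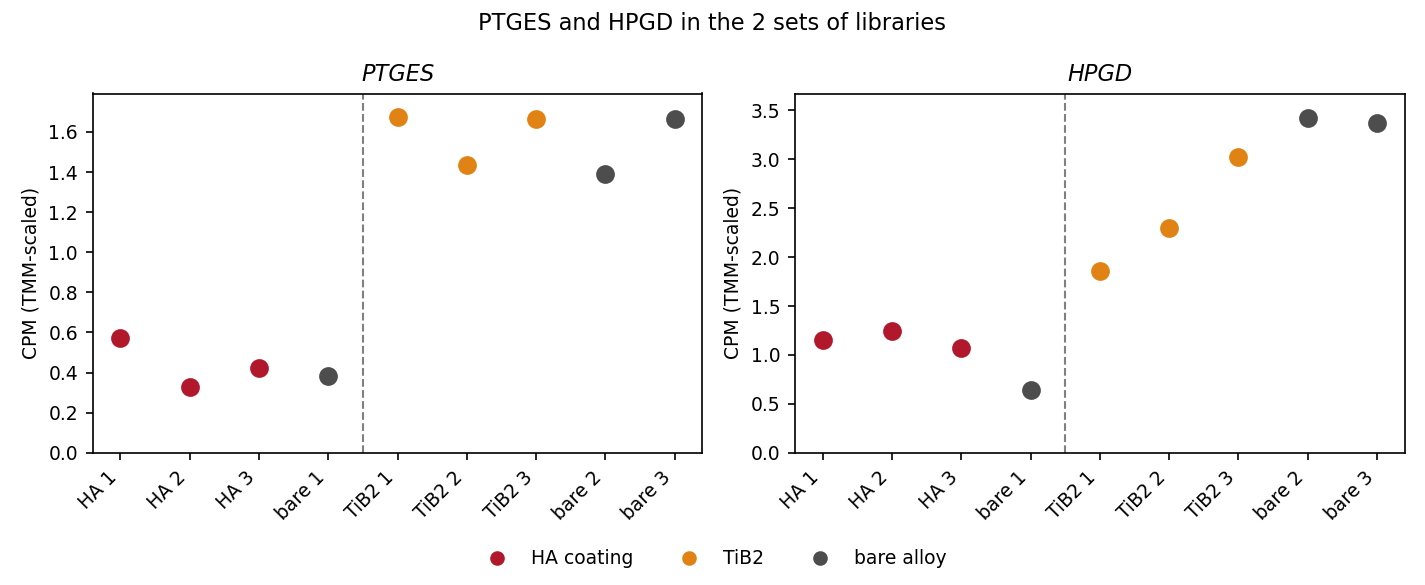
PTGES (left) and HPGD (right) in each library in CPM scaled by TMM, with the set of 4 libraries left of the dashed line and the set of 5 right of it. Bare 1 lies with the HA libraries and bare 2 and bare 3 with the TiB2 libraries in both panels.

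Per transcript length, the genes fell into an abundant and a scarce group on each surface. On the FPKM scale, PLA2G4A averaged 177 ± 46.7, PTGES3 115 ± 14.4 and PTGS2 85.3 ± 8.4 on the HA coating. On TiB2 the order was PLA2G4A at 120 ± 22.8, PTGS2 at 116 ± 41.4 and PTGES3 at 93.0 ± 11.2 FPKM, which overlap in range. On bare alloy it was PTGES3 at 68.2 ± 3.9, PLA2G4A at 38.8 ± 3.5 and PTGS2 at 8.84 ± 0.76 FPKM (SD, n = 3 each), with no overlap. PLA2G4A and PTGS2 thus stood in a ratio of 2.13 ± 0.80 on the HA coating, 1.10 ± 0.26 on TiB2 and 4.40 ± 0.37 on bare alloy.
PTGES2 and PTGER2 came next, at 4.67 and 2.74 FPKM on the HA coating, 5.37 and 1.90 FPKM on TiB2, and 3.99 and 4.80 FPKM on bare alloy, so that their order turned round between coated and bare surfaces. These 2 did not overlap in range on any surface, though on bare alloy the highest PTGES2 value was 4.41 FPKM and the lowest PTGER2 value 4.48 FPKM. The other 5 genes (PTGES, PTGER4, HPGD, PTGIS, PTGS1) averaged under 1 FPKM everywhere, from 0.0613 FPKM for PTGS1 on bare alloy to 0.811 FPKM for PTGES on TiB2. Within this group most neighbours in the order overlapped in range, except that PTGS1 lay apart below HPGD on the HA coating and below PTGIS on bare alloy, and that on TiB2 HPGD lay apart from both PTGER4 above it and PTGIS below it. Of the summed FPKM of the 3 E synthases, PTGES3 held 95.9% on the HA coating, 93.7% on TiB2 and 93.8% on bare alloy, and the inducible PTGES held 0.187%, 0.823% and 0.772%.

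**Figure D4:**
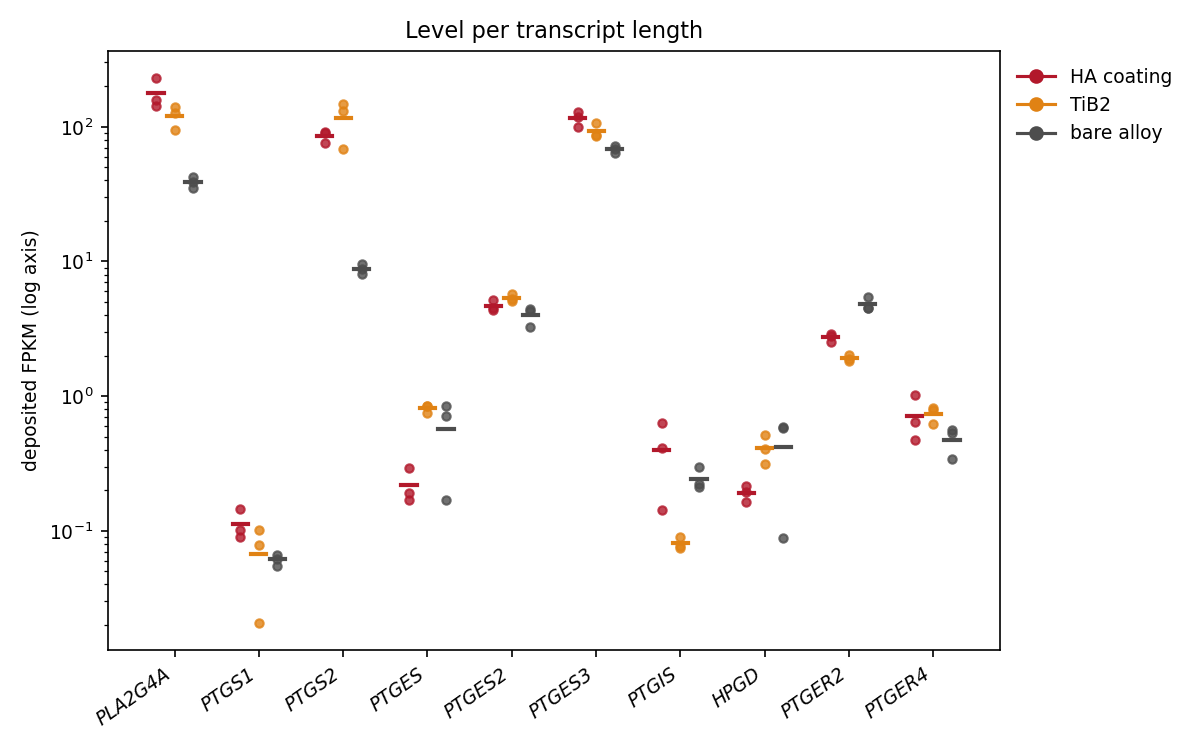
Deposited FPKM of the 10 genes on a log axis, with HA coating, TiB2 and bare alloy from left to right within each gene. Points are libraries and bars are means of 3. PLA2G4A, PTGS2 and PTGES3 lie above the other 7 genes on all 3 surfaces.

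Lists of other genes around the pathway are read against the same backgrounds, 9.89% of all genes called on the HA coating and 25.1% on TiB2. On the supply side, 2 of 19 tested genes for phospholipases and arachidonate handling rose and 1 fell on the HA coating against bare alloy (median log2 fold change 0.04), while 6 rose and 2 fell on TiB2 (median 0.25). ACSL4, which loads arachidonic acid onto coenzyme A, rose on both, by 1.15 ± 0.18 on the HA coating (edgeR adjusted p = 0.00662, lost without bare 3) and 1.11 ± 0.12 on TiB2 (edgeR adjusted p = 0.000240). The desaturases FADS1 and FADS2, which act in arachidonic acid synthesis, rose on TiB2 by 1.06 ± 0.06 and 0.98 ± 0.08 (edgeR adjusted p = 6.06e-06 and 2.88e-05). ANXA1, a glucocorticoid-induced inhibitor of phospholipase A2, fell on TiB2 by 0.68 on the log2 scale (edgeR adjusted p = 0.000583). The phospholipase PNPLA8 rose by 0.87 and the secreted phospholipase PLA2G12A fell by 0.76 on the HA coating (edgeR adjusted p = 0.0331 and 0.0333), and both calls were lost without any 1 of HA 2, HA 3, bare 1, bare 2 or bare 3.

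Other prostanoid synthases had 2 of 5 tested genes higher on the HA coating (median 0.62) and 3 of 5 on TiB2 (median 0.48), and none fell. AKR1B1, an aldose reductase with prostaglandin F synthase activity, rose by 0.62 ± 0.16 on the HA coating (edgeR adjusted p = 0.0446, lost without HA 2 or any 1 bare library) and by 0.90 ± 0.12 on TiB2 (edgeR adjusted p = 0.000592). The carbonyl reductase CBR1, which converts prostaglandin E2 to F2 alpha, rose by 0.73 ± 0.18 on the HA coating (edgeR adjusted p = 0.0395, lost without any 1 bare library) and by 0.48 ± 0.07 on TiB2 (edgeR adjusted p = 0.00155).
Among 7 genes of transport and inactivation, 2 rose on the HA coating (median 0.22) and 3 on TiB2, where none fell although the median was -0.09. ABCC4, which exports prostaglandins, was at 143, 145 and 104 CPM on the HA coating, 190, 160 and 167 CPM on TiB2 and 44.6, 52.5 and 50.3 CPM on bare alloy. Every coated library exceeded every bare one, by 1.41 ± 0.18 for the HA coating (edgeR adjusted p = 0.00308) and 1.81 ± 0.09 for TiB2 on the log2 scale (edgeR adjusted p = 3.06e-06). PTGR1, a reductase of prostaglandin breakdown products, rose on TiB2 by 0.38 ± 0.08 (edgeR adjusted p = 0.00689). CBR3, a carbonyl reductase, rose by 0.95 ± 0.22 on the HA coating (edgeR adjusted p = 0.0322, lost without HA 3 or any 1 bare library) and by 0.97 ± 0.14 on TiB2 (edgeR adjusted p = 0.00108).

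Of 4 other prostanoid receptors tested, 1 fell on each coated surface and none rose (median -0.29 on the HA coating and -0.31 on TiB2). It was PTGFR, the prostaglandin F receptor, at 52.5, 83.5 and 59.6 CPM in the HA libraries, 44.2, 37.5 and 43.1 CPM in the TiB2 libraries and 188, 218 and 183 CPM in the bare libraries. PTGFR fell by 1.60 on the HA coating (edgeR adjusted p = 0.00302) and by 2.24 on TiB2 (edgeR adjusted p = 1.09e-06) on the log2 scale, and its groups did not overlap. Per length it had the highest mean FPKM of the prostanoid receptors listed here on all 3 surfaces, at 10.8 FPKM on the HA coating, 7.00 FPKM on TiB2 and 32.0 FPKM on bare alloy. In the fit with the set term, that is against bare 1 alone, none of the 10 list genes named as called on the HA coating passed, with edgeR adjusted p from 0.0616 for PTGFR (-1.54) and 0.0789 for ABCC4 (1.54) to 0.458 for PLA2G12A (-0.51).

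In the list of the lipoxygenase and leukotriene branch, which also holds EPHX2 of the cytochrome P450 branch, 2 of 5 tested genes fell on the HA coating (median 0.0055), and 3 of 7 rose and 1 fell on TiB2, although the median there was -0.64. The other gene that fell on the HA coating was the lipoxygenase ALOX12 (-1.19 ± 0.31, edgeR adjusted p = 0.0452), named after its values were seen. ALOX12 averaged 0.367 FPKM on the HA coating and 0.829 FPKM on bare alloy, under the 1 FPKM asked of the other named list genes. Its fits with a library left out are not given here. It is also not among the list genes counted above for the fit with the set term. EPHX2, a hydrolase of arachidonic acid epoxides, fell by 1.28 on the HA coating and by 0.75 on TiB2 on the log2 scale (edgeR adjusted p = 0.00441 and 0.000733). LTA4H and LTB4R, for leukotriene B4 synthesis and reception, rose on TiB2 by 0.51 and 0.52 (edgeR adjusted p = 0.00117 and 0.0110). The third gene of this list that rose on TiB2 averaged under 1 FPKM on TiB2 and on bare alloy, and is not named for that reason.
Among 11 genes that respond to cAMP, 1 rose on the HA coating (median 0.20), namely CREM (0.71 ± 0.19, edgeR adjusted p = 0.0499, lost without HA 2, HA 3, bare 1, bare 2 or bare 3). On TiB2, 3 of them rose and 2 fell (median 0.32), among them PER1 at 0.57 ± 0.16 (edgeR adjusted p = 0.0309, lost without TiB2 2, TiB2 3, bare 2 or bare 3), PDE4D at -0.68 ± 0.12 (edgeR adjusted p = 0.00284) and PDE4B at -0.40 ± 0.08 (edgeR adjusted p = 0.00773). The other genes of this list that rose on TiB2 averaged under 1 FPKM on TiB2 and on bare alloy, and are not named for that reason.

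**Figure D5:**
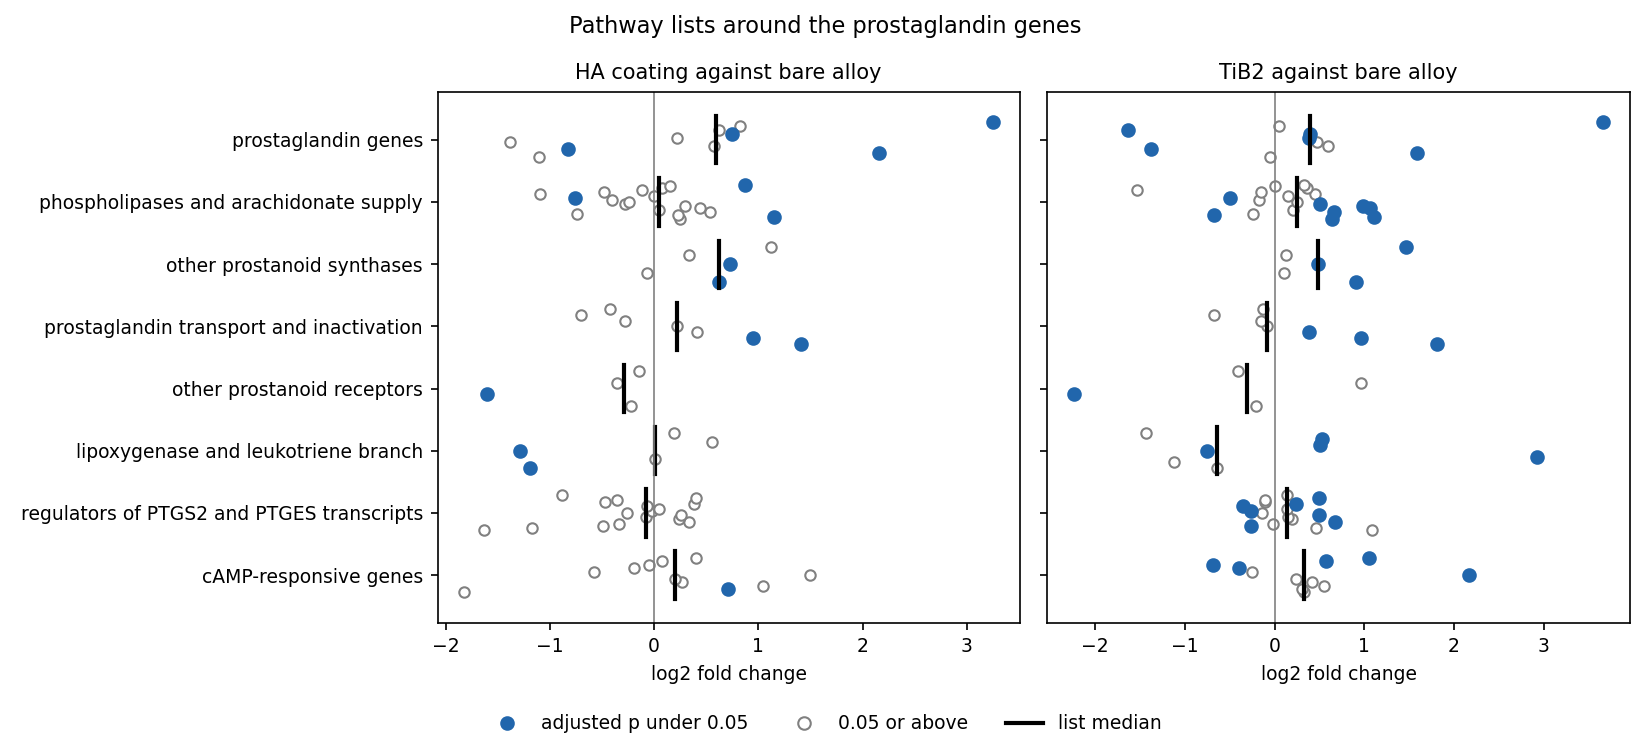
edgeR log2 fold changes of the 10 prostaglandin genes and of 7 lists around them, for HA coating (left) and TiB2 (right) against bare alloy. Each point is 1 tested gene, filled where the adjusted p was under 0.05, and the black bar is the list median. PTGS2 has the highest value in the left panel and in the right panel, and PTGFR is the only filled point among the other receptors.

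Regulators of PTGS2 and PTGES transcripts, comprised 17 genes of transcription and mRNA stability. On the HA coating none of the 17 passed edgeR's test against bare alloy (median -0.08), with 5 at an unadjusted p under 0.05 (27.3% of all genes). DESeq2 called 3, beside 20.1% of the 17750 genes to which it gave an adjusted p. On TiB2, 4 rose and 3 fell (median 0.14). EGR1 and NFKB1, transcription factors that act on PTGS2, rose there by 0.67 ± 0.12 and 0.50 ± 0.11 (edgeR adjusted p = 0.00414 and 0.00863). ZFP36L1, which binds AU-rich mRNA, rose by 0.50 (edgeR adjusted p = 0.0151, lost without TiB2 1, bare 2 or bare 3) and the RNA-binding TIA1 fell by 0.35 on the log2 scale (edgeR adjusted p = 0.0434, lost without TiB2 1, TiB2 2, bare 1, bare 2 or bare 3).
For HA coating against TiB2, 2 of the 17 passed, both lower on the HA coating, where 0.632% of all genes passed, 0.453% downwards. At edgeR's unadjusted p under 0.05 there were 3 of the 17, and DESeq2 called 3. No gene of the other 6 lists passed edgeR's test in that comparison. At an unadjusted p under 0.05 (12% of all genes) there were 6 of 19 in phospholipases and arachidonate supply, 3 of 6 in the lipoxygenase list, 3 of 11 among the genes responding to cAMP, 1 of 4 among the other receptors and 0 in the other 2 lists. DESeq2 (2.5% of all genes) called 3 of the first list, 1 of the second and 0 of the others. CEBPB, a C/EBP factor with a known site in the PTGS2 promoter, was at 6.67, 4.03 and 11.4 CPM on the HA coating and at 59.8, 43.6 and 41.3 CPM on TiB2 (-2.72 ± 0.34, edgeR adjusted p = 0.00720). On bare alloy CEBPB was at 4.94 CPM in bare 1, 25.5 CPM in bare 2 and 37.4 CPM in bare 3. CEBPD, a related factor, was at 32.0, 18.1 and 23.0 CPM on the HA coating and at 79.8, 71.9 and 74.2 CPM on TiB2 (-1.64 ± 0.22, edgeR adjusted p = 0.00983, lost without HA 2 or TiB2 1), beside 24.3 CPM in bare 1, 58.5 CPM in bare 2 and 81.2 CPM in bare 3. Both factors thus follow the library sets, as PTGES and HPGD do, and PTGS2 does not.

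The genes whose profile over the 9 libraries was most like that of PTGS2, by the smallest root mean square difference of centred log2(CPM + 0.5) among 6853 genes, were IL6 (0.32), SLC16A6 (0.39), PLIN2 (0.43), TMEM156 (0.48) and PLAT (0.48). IL6, an inflammatory cytokine, was at 33.0, 32.8 and 61.4 CPM on the HA coating, 89.2, 39.5 and 82.8 CPM on TiB2 and 3.10, 2.71 and 3.74 CPM on bare alloy. TiB2 2 was the lowest TiB2 library for IL6, SLC16A6, TMEM156 and PLAT, as for PTGS2. For PLIN2 the lowest was TiB2 1 (1290 CPM, against 1474 CPM in TiB2 2). The genes were picked for likeness over these same libraries, so a shared order follows largely from the choice. Nearest to PTGES were MRPL41 (0.18), CLEC11A (0.20), RPL13 (0.21), C1orf122 (0.21) and BASP1 (0.21). Each of them was lower in HA 1 to 3 and bare 1 than in the other 5 libraries, which the choice by likeness to PTGES favours. Transcript GC content was 71.9% for MRPL41, 67.7% for CLEC11A, 56.2% for RPL13, 64.2% for C1orf122 and 55.1% for BASP1, beside 56.9% for PTGES, which is higher than in 77.5% of 20315 genes. It was low for PTGS2 (36.9%, higher than in 4.80% of the genes) and for PLA2G4A (39.0%, higher than in 11.3%). A smooth trend with GC content and length was fitted to each library's deviation from the mean of the libraries compared. For HA coating against TiB2 it took up 25.1% to 35.4% of the deviation in the HA libraries. In TiB2 1, TiB2 2 and TiB2 3 it took up 9.41%, 31.2% and 9.53%. In HA coating against bare alloy that trend took up 12.5% to 30.3% in the HA libraries and 5.96% to 16.4% in the bare libraries. Its part in the PTGES difference was not tested beyond the fit with a GC and length offset, which gave -1.92 for HA coating against TiB2 (edgeR adjusted p = 0.0461).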

How the data were processed

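Groups and replicate numbers came from the labels. The authors deposited raw counts and FPKM values per gene and library in 1 table (FPKM followed the counts within each gene), and the submitters' processing notes name featureCounts 2.0.1, StringTie 2.1.4, HISAT2 2.2.1, cutadapt 2.10, limma and the build GRCh38 without their roles. How strand and multi-mapped reads were treated is not stated. The 10 genes and the lists around them were chosen with earlier results of these data known. Each comparison used its own 6 libraries: filterByExpr, TMM scaling, and edgeR's two-sided quasi-likelihood test (edgeR 4.0.16 in R 4.3.3), adjusted by Benjamini-Hochberg over all genes tested, with a threshold of 0.05. Errors of log2 fold changes are standard errors. Levels are CPM, TMM-scaled over 9 libraries, and FPKM as deposited where genes are compared. Alternatives used limma 3.58.1 on log2(FPKM + 1) and log2(FPKM + 0.1), DESeq2 1.42.0, other filters, 9 libraries in 1 fit, a replicate block, a GC and length offset (GENCODE 29 transcripts, natural splines with 5 degrees of freedom), the library set as a term and each library left out. The sets were read from genes that had 20 or more counts throughout one side and 3 or fewer throughout the other. Splits that parted off a single library were not used for the sets. Same-numbered libraries did not deviate together (r from -0.17 to 0.16), so numbers were not taken as pairs. Every pair of libraries from 1 surface differed by more than counting error alone allows. Relative to counting error (Poisson), the typical (median) squared difference was 79.8-fold to 127-fold in HA pairs. It was 15.8-fold to 19.4-fold in TiB2 pairs and 15.0-fold to 21.3-fold in bare pairs, so the HA libraries spread most. The part of this spread in the numbers of genes called was not tested. On simulated data made like HA coating against bare alloy (19393 genes), edgeR found 29.0% of the genes changed 2-fold and 86.6% of those changed 4-fold. The shares were 53.5% and 90.0% in data like TiB2 against bare alloy (19478 genes) and 33.0% and 76.0% in data like HA coating against TiB2 (19347 genes). Depth is given per surface in the results. Besides the 10 genes, up to 4 genes per list are named, those past the threshold with the largest change and at least 1 FPKM, and the 5 genes most like PTGS2 and PTGES with at least 5 FPKM. ALOX12, named after its values were seen, is outside this rule. RefSeq held promoters for 9 of the 10 genes (PTGIS had none). TYROBP, PPBP, GP9, TPSAB1, TPSB2 and MS4A2 of the marker lists were not analysed here. Summed markers of macrophages were at 58.3 to 88.7 CPM on the HA coating, 79.3 to 95.5 CPM on TiB2 and 69.4 to 81.9 CPM on bare alloy, of endothelium at 13.3 to 15.0, 11.3 to 12.2 and 29.2 to 38.3 CPM, of platelets at 0.938 to 3.77, 2.07 to 2.47 and 1.63 to 1.66 CPM, of mast cells at 0.191 to 0.654, 0.536 to 0.623 and 2.39 to 2.99 CPM, and of epithelium at 137 to 210, 190 to 201 and 129 to 167 CPM. CD68 (51.2 to 79.6 CPM) and CD14 (5.89 to 15.4 CPM) carried the macrophage sums. Each other macrophage marker was under 1 CPM in every library. KRT8 (73.5 to 118 CPM) and KRT18 (47.4 to 115 CPM) carried the epithelium sums, with EPCAM, KRT5 and CDH1 at 0 to 1.15 CPM. The platelet and mast cell sums rested on 3 and 2 markers.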

Additional observations from a re-analysis of the deposited data

How the results depend on the processing

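The 10 called values of the prostaglandin genes kept their sign in 169 alternative fits, and over all 485 alternative fits of the 10 genes 432 kept direction and side of the threshold. PTGS2 and PLA2G4A passed against bare alloy in every alternative run. For HA coating against bare alloy, the genes called lower among the 10 were 0 with no filter on low counts and 0 with a term for the library set, and 0 to 1 with a library left out. All genes called there numbered 1990, against 3562 with DESeq2, 1093 with no filter, 3518 with 9 libraries in 1 fit, 3766 with the GC and length offset, 210 with the library set, where bare 1 is the only bare library compared with HA, and 598 to 4185 with a library left out (4185 without HA 1, 1092 without HA 2, 857 without bare 1, 598 without bare 2 and 601 without bare 3). For TiB2 against bare alloy, members called higher were 2 with 9 libraries in 1 fit, members called lower 1 under the filter on a mean FPKM of 1, where PTGIS is left out, and all genes called 2132 with 9 libraries in 1 fit, against 5059. For HA coating against TiB2, where 127 genes were called, members called higher were 1 with DESeq2, 1 with the replicate block and 0 to 1 with a library left out. Members called lower were 1 with DESeq2, 1 with either limma fit, 1 with the GC and length offset and 0 to 1 with a library left out. Genes called were 501 with DESeq2, 35 with no filter, 61 with a mean FPKM of at least 1, 67 with 9 libraries in 1 fit, 195 with the replicate block and 49 to 1224 with a library left out (1224 without HA 1, 49 without HA 2 or TiB2 1, 66 without TiB2 2 and 62 without TiB2 3). Values that turned sign were not past the threshold. They were PTGES at 0.20 and HPGD at 0.85 for HA coating against bare alloy with the library set. For TiB2 against bare alloy they were PTGS1 at -0.13 with the replicate block, -0.14 with block and offset and -0.38 to 0.46 with a library left out, and HPGD at 0.010 and 0.18 with limma at pseudocounts of 1 and 0.1, 0.21 with the block, 0.18 with block and offset and -0.51 to 0.25 with a library left out. For HA coating against TiB2 they were PTGES2 at 0.13 with the offset and 0.11 with block and offset, and PTGER4 at 0.085 with the offset, 0.050 with block and offset and -0.34 to 0.22 with a library left out. The cause was not tested. The replicate block ended the calls of PTGES3 on the HA coating (0.73, adjusted p = 0.0722) and PTGES2 on TiB2 (0.39, adjusted p = 0.0669), edgeR tests both, and 1 of 9 libraries correlated best with its own number. With 8 to 54 counts for PTGS1, 21 to 107 for PTGES, 28 to 226 for PTGIS and 35 to 219 for HPGD a library, differences of these genes are limited by depth as well as by spread.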
